A study of Rattus norvegicus with 4 samples.

Results

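Ephrins and their Eph receptors were examined in the telencephalon of homozygous Pax6 mutant and wild-type rat embryos. The group was set by name: 10 genes, with every probe set whose single gene symbol was 1 of them. Of the 10 genes, 8 had such a probe set, with 17 probe sets out of the 31042 on the array that were not controls. Efna3 and Efnb2 had none and were not analysed here. Of the 17 probe sets, 16 were bright enough to be tested, and the single probe set of Epha5 was not.

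The 4 arrays held 2 samples of Pax6 mutant (rSey2/rSey2) and 2 of wild-type telencephalon, all of Sprague-Dawley background at E11.5, the embryonic day counted from the vaginal plug. Pax6 is a paired-box transcription factor of the dorsal forebrain and eye. Per the design text, RNA came from 13 telencephalons and was prepared again in each genotype, so an array stands for pooled embryos of litters that are not named. The replicates are called biological in the labels, and the p-values below measure the spread between 2 such pools, part of which may be technical. All levels are GCRMA values on the log2 scale, all differences are mutant minus wild type on that scale, and SE is limma's moderated standard error, with n = 2 arrays per genotype.

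Ephrins are ligands held at the cell surface, and Eph receptors are the receptor tyrosine kinases that bind them on a neighbouring cell. A-type ephrins are anchored by a lipid and mostly bind EphA receptors, while B-type ephrins span the membrane and mostly bind EphB receptors. Contact can signal into both cells and often leads to repulsion. In the embryonic brain the system is known for sorting cells at borders between regions, for guiding axons and for patterning vessels.

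The sequences just upstream of 2 of the genes are shown because 1 gene, Ephb1, lay higher in both mutant arrays than in both wild-type arrays while the brighter probe set of the other, Efnb1, hardly differed. Both stretches are from RefSeq (build GRCr8), hold the 250 bases before the annotated start and lie outside the annotated gene. Capitals mark the letters ATTA or TAAT, the core bound by many homeodomain proteins.
Ephb1, chr8:111823760-111824009, minus strand: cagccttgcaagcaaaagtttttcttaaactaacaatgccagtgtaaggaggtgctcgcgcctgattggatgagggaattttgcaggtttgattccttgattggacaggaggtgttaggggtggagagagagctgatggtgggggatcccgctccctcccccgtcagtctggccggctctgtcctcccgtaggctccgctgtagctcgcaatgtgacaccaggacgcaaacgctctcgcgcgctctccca
Efnb1, chrX:68297279-68297528, plus strand: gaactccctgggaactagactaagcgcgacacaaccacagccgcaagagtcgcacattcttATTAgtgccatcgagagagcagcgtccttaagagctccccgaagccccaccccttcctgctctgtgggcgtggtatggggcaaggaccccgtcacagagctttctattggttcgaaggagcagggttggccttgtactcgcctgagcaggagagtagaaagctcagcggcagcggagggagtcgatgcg
Efnb1 held the core once, starting 189 bases before the start, and Ephb1 did not hold it. Of the 10 genes, 9 were in the RefSeq promoter table, and the core was found on either strand in 3 of them (Efnb1, Epha5 and Epha7), against 57.0% of all 33469 upstream stretches of that length. Not all of these windows lay outside annotated genes. For Efna1, Epha3 and Epha5 0 of the 250 bases did, for Efna5 41 and for Epha7 133. Efnb2 had the richest stretch in G and C (80.4%) and Epha5 the poorest (47.6%), with a median of 51.2% over all stretches. These are letters in a window and say nothing about binding.

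The arrays had similar medians over tested probe sets, at 8.22 and 8.35 in the mutant and 8.24 and 8.33 in the wild type. Pax6 itself was at 11.78 and 11.63 in the mutant arrays, against 11.75 and 11.85 in the wild-type arrays. Whether that probe set covers the rSey2 lesion is not given in the labels, so the level does not check the genotype. Among defining forebrain genes, Lhx2 was at 13.42 and 13.24 in the mutant arrays, against 13.05 and 13.01 in the wild-type arrays, and Emx2 at 10.50 and 10.45, against 10.59 and 10.54. Of 7 tested genes of the dorsal telencephalon, these included, 3 were higher and 4 lower, with 0 past an adjusted p of 0.05. Among them Dmrta1, a transcription factor of cortical progenitors, was at 5.17 and 6.29 in the mutant arrays, against 8.61 and 8.80 in the wild-type arrays, a difference of -2.97. Tfap2c, a transcription factor of the AP-2 family, differed by -0.43, also without overlap. Red cell genes were present too, with 8 of 8 tested genes higher in the mutant and 0 past an adjusted p of 0.05. Their differences ran from 0.17 to 0.94. Their summed linear levels (values taken off the log scale and added over the genes) were 77580 and 78143 in the mutant, against 67069 and 67861 in the wild type. Nearly all of each sum came from the globins Hbe1 and Hbz, which differed by 0.22 and 0.18, so the sum stands for these and not for the list. Of 9 tested neuronal genes 5 were higher and 4 lower. Of 7 tested surface ectoderm genes 3 were higher and 3 lower, and Krt5 and Krt14 were dim in both genotypes. The epithelial genes Epcam, Krt18 and Cdh1 differed by -0.92, -0.73 and 0.59, each without overlap and with an unadjusted p under 0.05. The part of these cells in the results below was not tested.

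**Figure D1:**
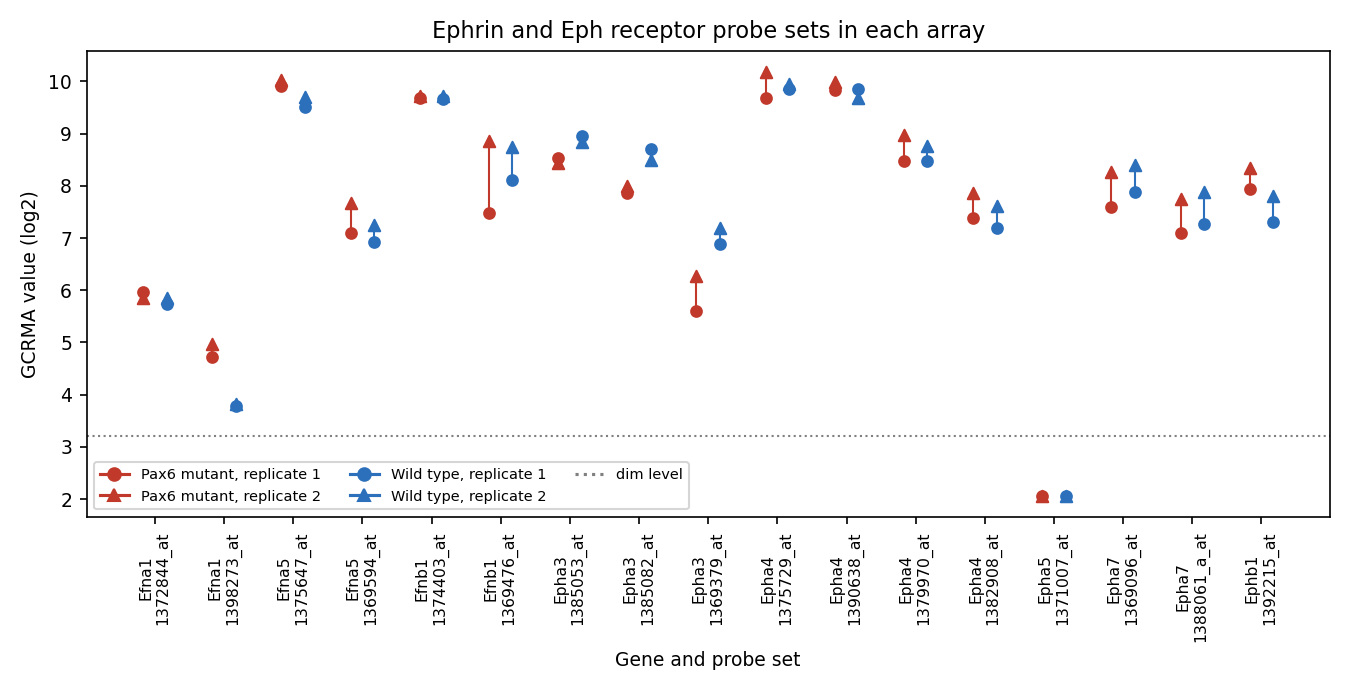
GCRMA value (log2, y axis) of each probe set of the listed ephrins and Eph receptors (x axis) in each array, with Pax6 mutant arrays in red on the left and wild-type arrays in blue on the right of each pair. Each point is 1 array, the line joins the arrays of a genotype, and the dotted line is the dim level of 3.21. The 3 Epha3 probe sets lie lower in both mutant arrays, and Epha5 sits at the lowest value of the table.

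Among the listed ligands, both A-type ephrins with data had higher mean values in the mutant and the B-type ephrin did not. Outside the list, the A-type ephrin Efna4 differed by -0.22 and the B-type ephrin Efnb3 by -0.12, both with overlap. Efna1, an ephrin known for its induction by inflammatory signals and for its place in vessels, depended on the probe set. Its probe set 1398273_at was at 4.73 and 4.97 in the mutant arrays, against 3.78 and 3.82 in the wild-type arrays. The difference was 1.05 (SE 0.12, 95% interval from 0.69 to 1.40), a 2.07-fold higher level, with an unadjusted p of 0.00209 and an adjusted p of 1 in limma. The arrays of this probe set did not overlap, and the nearest mutant and wild-type arrays were 0.91 apart. The probe set lay close above the dim level of 3.21, and with 16 added on the linear scale the difference was 0.58.

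The other Efna1 probe set, 1372844_at, was at 5.97 and 5.86 in the mutant arrays, against 5.73 and 5.86 in the wild-type arrays. Here the genotypes overlapped, and the difference of 0.12 (SE 0.10, 95% interval from -0.17 to 0.41) lay within the spread between arrays. The 2 intervals did not overlap each other, so the size for Efna1 is not settled by these arrays. The value of 1372844_at less that of 1398273_at was 1.25 and 0.89 in the mutant arrays, against 1.94 and 2.04 in the wild-type arrays.

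Endothelial markers are given beside Efna1 because vessels express it. Of 14 tested endothelial genes, 12 were higher in the mutant, with a median difference of 0.18 and 0 past an adjusted p of 0.05. Their summed linear level was 4626 and 5393 in the mutant arrays, against 4238 and 4266 in the wild-type arrays. The defining marker Kdr, a receptor for vascular endothelial growth factor, differed by 0.28, and Pecam1, an adhesion molecule between endothelial cells, by 0.25. The arrays overlapped for Pecam1, whose difference was 0.03 without mutant replicate 1, and did not for Kdr. The largest difference was that of Plvap at 0.65. The part of these markers in the Efna1 value was not tested.

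Efna5, an A-type ephrin known in the mouse for guiding thalamic axons and for its graded expression in the cortex, was higher on both of its probe sets. Probe set 1375647_at was at 9.91 and 10.03 in the mutant arrays, against 9.51 and 9.70 in the wild-type arrays. The mutant arrays lay above the wild-type arrays by at least 0.22, and the difference was 0.37 (SE 0.11, 95% interval from 0.04 to 0.70), or 1.29-fold, with an unadjusted p of 0.0379 and an adjusted p of 1 in limma. Probe set 1369594_at was at 7.09 and 7.68 in the mutant arrays, against 6.92 and 7.24 in the wild-type arrays. On this probe set the genotypes overlapped, and its difference of 0.30 (SE 0.27) was 0.01 without mutant replicate 2 and 0.60 without mutant replicate 1.

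Efnb1, a B-type ephrin of neural progenitors, did not differ beyond the spread on either probe set. Probe set 1374403_at was at 9.68 and 9.71 in the mutant arrays, against 9.67 and 9.72 in the wild-type arrays, a 95% interval of the difference from -0.22 to 0.21. This was the narrowest interval among the tested probe sets of the family. Probe set 1369476_at was at 7.48 and 8.86 in the mutant arrays, against 8.11 and 8.74 in the wild-type arrays. Its mutant arrays were 1.38 apart, and the difference of -0.26 had an interval from -2.08 to 1.57, too wide to place it on either side of 0.

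Among the receptors, Epha3 was the gene whose 3 probe sets all lay lower in the mutant without overlap. Epha3 is a receptor for A-type ephrins, with ephrin-A5 among its best-known ligands. Probe set 1385053_at was at 8.53 and 8.44 in the mutant arrays, against 8.95 and 8.84 in the wild-type arrays, a difference of -0.41 (SE 0.09). Probe set 1385082_at was at 7.87 and 8.0 in the mutant arrays, against 8.71 and 8.50 in the wild-type arrays, a difference of -0.67 (SE 0.12). Probe set 1369379_at was at 5.61 and 6.28 in the mutant arrays, against 6.88 and 7.20 in the wild-type arrays, a difference of -1.09 (SE 0.30).

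On each Epha3 probe set the higher mutant array stayed below the lower wild-type array, by 0.30, 0.49 and 0.60 in the same order. In fold terms the mutant level was 0.755, 0.629 and 0.468 of the wild-type level. The unadjusted p-values in limma were 0.0159, 0.00918 and 0.0309, and the adjusted p was 1 for each. With any single array left out the 3 differences ran from -0.46 to -0.35, from -0.78 to -0.56 and from -1.43 to -0.76. Their sign could not turn, since the arrays did not overlap, so these ranges bear on size only. Among all 827 genes with at least 3 tested probe sets, 9 (1.09%) had every probe set lower in the mutant without overlap.

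Lists of neighbouring tissues are given beside Epha3. In these pooled samples fewer cells that express a gene and less RNA per cell cannot be told apart. Of 9 tested mesenchyme genes, 5 were lower and 4 higher in the mutant. Their summed linear levels were 6105 and 7480 in the mutant, against 7651 and 7867 in the wild type. Most of each sum came from Col3a1, which differed by -0.25, so the sum does not stand for the list. The mesenchyme markers Pdgfra, Col1a1 and Twist1 differed by -0.44, -0.20 and 0.08, and all 3 were well above the dim level. Of 5 tested diencephalon and eye genes, 3 were lower and 2 higher. Their summed linear levels were 3336 and 3520 in the mutant, against 3786 and 3988 in the wild type, and came mostly from Tcf7l2. In that list Irx3, a homeobox factor of the diencephalon, differed by -0.65 and Tcf7l2, a Wnt effector of the thalamus, by -0.24, while Rax, a homeobox factor of the eye field, differed by 0.57. The part of these tissues in the Epha3 value was not tested.

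Ephb1, a receptor for B-type ephrins that is known in the mouse for turning retinal axons at the midline, was higher in both mutant arrays on its 1 probe set. It was at 7.93 and 8.34 in the mutant arrays, against 7.31 and 7.80 in the wild-type arrays. The arrays did not overlap, but the nearest mutant and wild-type arrays were 0.13 apart, less than the 0.49 between the wild-type arrays. The difference of 0.58 (SE 0.26, 95% interval from -0.21 to 1.38) did not pass the test (limma, adjusted p = 1), and it ran from 0.33 to 0.83 when a single array was left out, with the low end without wild-type replicate 1 and the high end without the other wild-type array. Beside it, the 3 tested genes of the ventral telencephalon, Nkx2-1, Dlx1 and Ebf1, differed by 0.63, 0.61 and 0.66. Of the 10 genes in that list, 6 had no probe set with that single symbol, and Dlx5 was dim in both genotypes. The summed linear levels of the tested genes were 1420 and 1656 in the mutant, against 953 and 1036 in the wild type, and came mostly from Nkx2-1. Nkx2-1 and Dlx1 did not overlap between genotypes. Ebf1 did, at 3.94 and 4.93 in the mutant arrays, against 3.61 and 3.94 in the wild-type arrays, near the dim level, and its difference ran from 0.17 to 1.16 with 1 array left out and was 0.36 with 16 added on the linear scale. The part of these genes in the Ephb1 value was not tested.

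Epha4, which binds ephrins of both types and is known in the mouse for its role in the corticospinal tract, did not differ beyond the spread on any of its 4 probe sets. The brightest, 1375729_at, was at 9.68 and 10.18 in the mutant arrays, against 9.85 and 9.94 in the wild-type arrays. Both wild-type values lay between the mutant values, and the difference was 0.04 (SE 0.21, 95% interval from -0.61 to 0.68). Probe set 1390638_at was at 9.84 and 9.99 in the mutant arrays, against 9.86 and 9.68 in the wild-type arrays, with a difference of 0.14 and the narrowest interval of the 4, from -0.20 to 0.49. The remaining probe sets, 1379970_at and 1382908_at, differed by 0.09 and 0.21, with intervals from -0.63 to 0.81 and from -0.57 to 1.0.

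Epha7, an A-type receptor that in the mouse has a full-length and a shortened form, gave nearly the same picture on both of its probe sets. Probe set 1369096_at was at 7.60 and 8.26 in the mutant arrays, against 7.88 and 8.40 in the wild-type arrays. Probe set 1388061_a_at was at 7.09 and 7.74 in the mutant arrays, against 7.26 and 7.89 in the wild-type arrays. The genotypes overlapped on both, and the differences of -0.21 (95% interval from -1.23 to 0.82) and -0.16 (95% interval from -1.27 to 0.95) were smaller than the gap between the arrays of either genotype. Epha5, an A-type receptor of cortical and limbic axons, was listed at the lowest value of the table, 2.07, in all 4 arrays, where no difference can be measured.

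**Figure D2:**
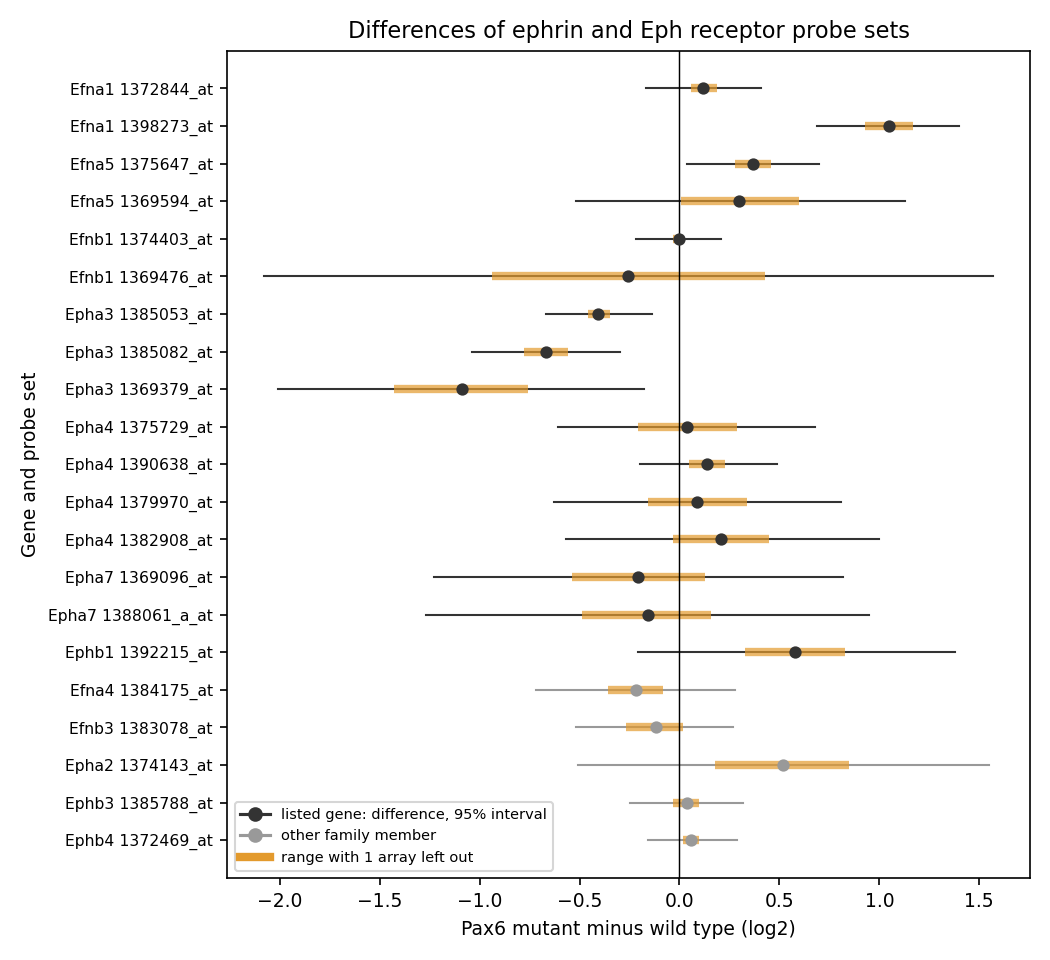
Difference between Pax6 mutant and wild type (x axis, log2) for each tested probe set (y axis), with listed genes in black and other ephrins and Eph receptors in grey. Thin lines are 95% intervals from limma and orange bars span the values with 1 array left out. The intervals of the 3 Epha3 probe sets lie below 0, and those of 1398273_at (Efna1) and 1375647_at (Efna5) above 0.

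The probe sets of a gene were then set against each other. In 6 of the 6 genes with at least 2 tested probe sets, all probe sets had the same sign, against 53.3% of 2928 genes on the array with as many. For Efnb1 that sign rests on a difference of -0.001 on 1 probe set, which turned after median centring, and the count was then 5. The genotypes overlapped on every probe set of Efnb1, Epha4 and Epha7. With 1 array left out the sign turned on each of these probe sets except 1390638_at of Epha4. Agreement in size was closest for Epha7, whose differences were 0.04 apart, and for Efna5, 0.06 apart. Epha4 spanned 0.17 over 4 probe sets and Efnb1 0.25. The widest spans were 0.69 for Epha3 and 0.92 for Efna1. Efna1 and Efna5 each had 1 probe set on which the genotypes overlapped and 1 on which they did not.

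Spread between arrays also differed by probe set. In the platform annotation 5 of the 16 tested probe sets were assigned to a RefSeq mRNA and 11 to another sequence, such as an expressed sequence tag. Within a gene, the RefSeq mRNA probe set had the wider gap between the mutant arrays in 6 of 6 pairs, over 5 genes, and the wider gap between the wild-type arrays in 4 of 6, a count made after the values were seen. For Epha7 the mutant gaps were nearly equal, at 0.66 and 0.65. In the other 5 pairs the RefSeq mRNA probe set was also the dimmer one, and the part of brightness in the gap was not tested. For Efnb1 the mutant gap was 1.38 on the RefSeq mRNA probe set and 0.03 on the other. For Epha3 it was 0.67 on 1369379_at, against 0.09 and 0.13 on the others. The assignment does not say where in the transcript the probes lie. Over the 16 probe sets the median gap was 0.45 between mutant arrays and 0.25 between wild-type arrays, against 0.20 and 0.16 over all tested probe sets.

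**Figure D3:**
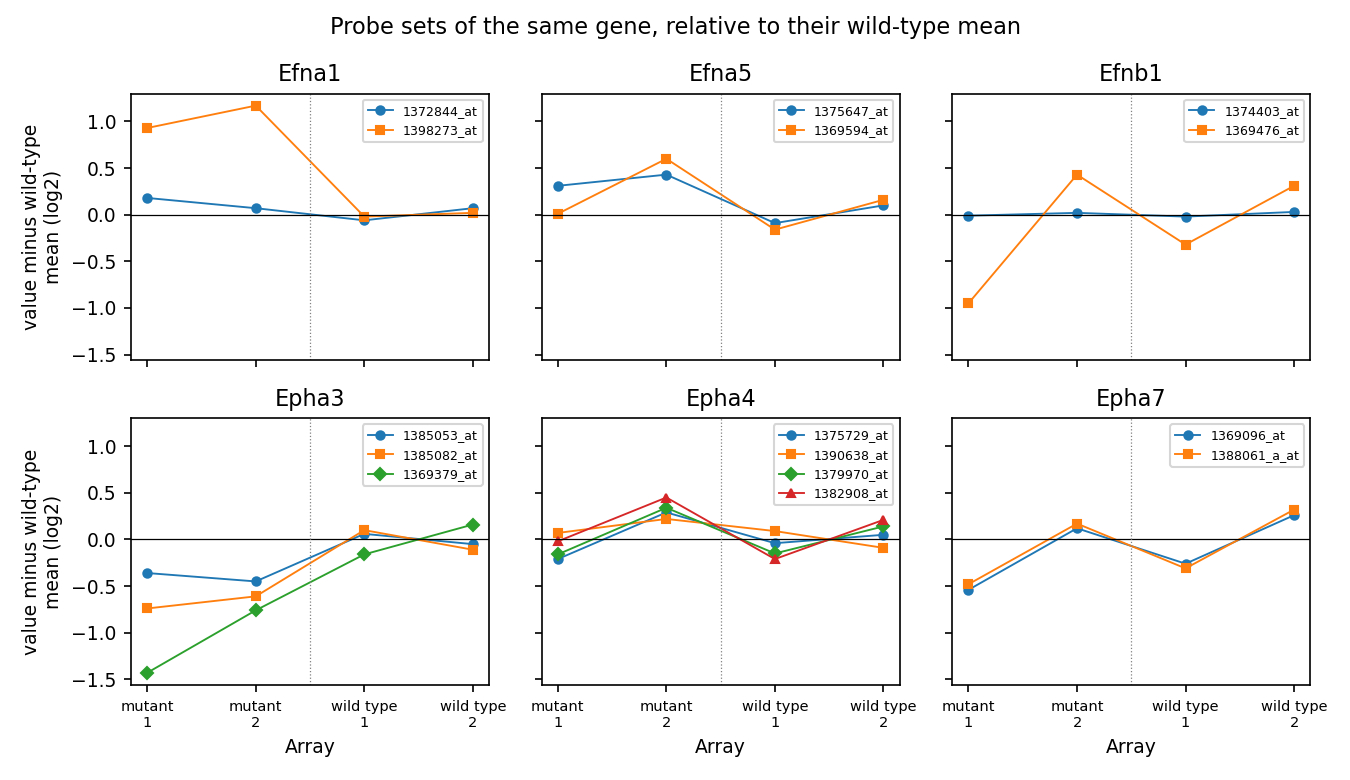
Value of each array less the wild-type mean of the same probe set (y axis, log2) for the genes with at least 2 tested probe sets, 1 panel per gene and 1 line per probe set, with mutant arrays left of the dotted line and wild-type arrays right of it (x axis). All Epha3 lines are below 0 in both mutant arrays, the Efna1 lines part by 0.92 between genotypes, and the lines of Epha7 nearly coincide.

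No listed probe set passed an adjusted p of 0.05 in limma, and neither did any of the 18625 tested probe sets (0 of 16 and 0.0%). At an unadjusted p under 0.05 there were 5 of 16 listed probe sets, 3 of them of Epha3, against 680 probe sets in all (3.65%). Probe sets of one gene are not independent. Counted by gene, each by its brightest tested probe set, 2 of 7 genes (Epha3 and Efna5) had an unadjusted p under 0.05, against 3.59% of 9840 genes. The genotypes did not overlap, with the mutant higher, in 3 of the 16 (11.4% over all probe sets), and with the mutant lower in 3 (11.8%). Both mutant arrays lay at least 1 from both wild-type arrays, to the same side, in 0 of the 16 (0.172% over all).

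As a group the genes had no common direction. By brightest probe set 4 were higher and 3 lower in the mutant, with a median of 0.04, against 49.9% higher and a median of 0.00 over all genes. The 3 ephrins had a median of 0.12 and the 4 receptors of -0.08. Leaving out 1 array moved the number of higher genes between 3 and 6 and the median between -0.02 and 0.13.

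Of 12 further ephrins and Eph receptors, 9 had a probe set and 5 were tested, of which 3 were higher, 2 lower and 0 past an adjusted p of 0.05. Epha2, a receptor of epithelia and early neural tissue, was at 6.73 and 7.40 in the mutant arrays, against 6.28 and 6.80 in the wild-type arrays. Its arrays overlapped, with a difference of 0.52 (SE 0.34). Ephb4, the venous partner of ephrin-B2, was at 8.96 and 8.98 in the mutant arrays, against 8.95 and 8.87 in the wild-type arrays, a difference of 0.06 that separated the genotypes by 0.01. Ephb3 differed by 0.04, Efna4 by -0.22 and Efnb3, a midline barrier for axons, by -0.12, each with an interval across 0. Epha6, Epha8, Epha10 and Ephb6 were dim in both genotypes, and Efna2, Epha1 and Ephb2 had no probe set with that single symbol.

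Genes that act with Eph receptors inside the cell or cut them at the surface were centred on 0. Of 40 listed partners, 36 were tested, of which 17 were higher and 19 lower in the mutant, with a median of -0.00 and a range from -0.44 to 0.32. None passed an adjusted p of 0.05 in limma, and 1 had an unadjusted p under 0.05 (3.59% over all genes). That gene was Anks1a, an adaptor that binds activated Eph receptors, at 10.56 and 10.49 in the mutant arrays, against 10.30 and 10.31 in the wild-type arrays (0.22, SE 0.07). The other high values were Ptpn13, a phosphatase that acts on B-type ephrins (0.32), and Rgs3, which links B-type ephrins to G-protein signalling (0.25). Dvl2, a Dishevelled protein (-0.44), Vav3, a guanine nucleotide exchange factor (-0.28), and the adaptor Crk (-0.17) were the lowest. The sheddase Adam10, which cuts ephrins, was at 9.24 and 9.36 in the mutant arrays, against 9.20 and 9.46 in the wild-type arrays.

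**Figure D4:**
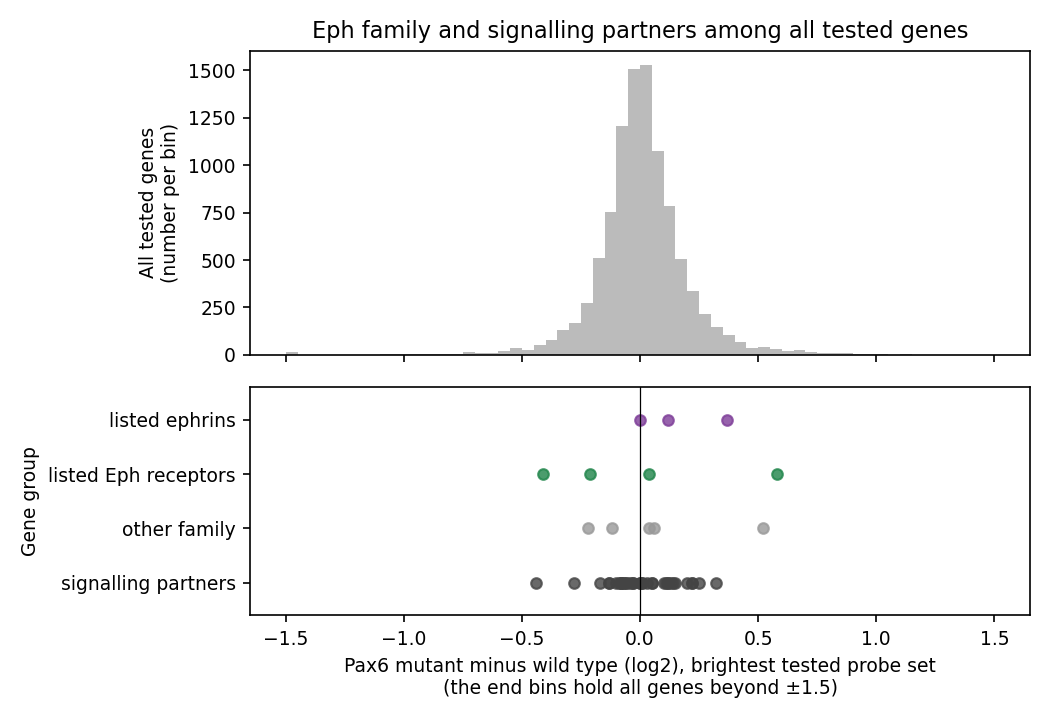
Upper panel, number of genes per bin of the difference between Pax6 mutant and wild type (x axis, log2) over 9840 tested genes. Lower panel, each listed ephrin, Eph receptor, other family member or signalling partner as a point, by its brightest tested probe set. The middle 95% of all genes lies between -0.39 and 0.43, Epha3 at -0.41, Ephb1 at 0.58, Epha2 at 0.52 and Dvl2 at -0.44 lie outside it, and the partners spread around 0.

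The genes whose 4 array values most resembled those of Epha3 probe set 1369379_at were sought, as it had the largest difference of the listed genes. Its mutant arrays were 0.67 apart, against 0.09 and 0.13 on the other Epha3 probe sets, so the likeness is to this probe set only. Distance was Euclidean, over the 4 arrays, between values less their own mean. The nearest were Capn3, a calpain protease, at 0.14, and Slc2a3, a glucose transporter, and Syt11, a synaptotagmin, both at 0.22. Capn3 was at 5.22 and 5.88 in the mutant arrays, against 6.31 and 6.76 in the wild-type arrays. With 4 points a close profile is a description of these arrays only.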

How the data were processed

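The 4 arrays held 2 samples of Pax6 mutant and 2 of wild-type telencephalon. The deposited values are on the log2 scale, 1 per probe set and array. Per the submitters' processing notes the authors used GCRMA, whose version is not given there. That method corrects for background with the help of each probe's sequence, makes the arrays comparable and joins a probe set's probes into 1 value, and weak probe sets end at a common low value. That the scale is log2 was judged from the range of 2.07 to 16.13, and 5333 to 5462 probe sets per array lay at that lowest value. The array number limits the precision.

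The 57 controls were left out, as were 12417 probe sets with a mean under the 40th percentile (3.21, the dim level). limma (version 3.58.1, R 4.3.3) fitted genotype with lmFit and eBayes to the other 18625, with Benjamini-Hochberg adjustment over all of them. The replicate number was not a term. The procedure was run on simulated data with known shifts, and the mean estimates had to come back near those shifts. That check does not bear on the number of probe sets called. No exact permutation test is given, since with 2 arrays against 2 its smallest two-sided p is 0.333. Genes were named by the platform annotation, from probe sets with 1 symbol only. Marker lists were summed on the linear scale, each gene by its brightest tested probe set.

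The named genes were all listed and further family members, the 3 highest and 3 lowest partners, the defining markers with up to 3 others per list, and the 3 genes nearest to the most different member. Adam10 was named after its values were seen. Members and lists were chosen with earlier results of these data known. Alternatives were other filters, quantile normalization, median centring, a pseudocount of 16, the replicate number as a block, the mean of a gene's probe sets, leaving out each array, and leaving out zero-variance probe sets, which was added after seeing the data.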

Additional observations from a re-analysis of the deposited data

How the results depend on the processing

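The number of probe sets past an adjusted p of 0.05 on the whole array was 0 as reported, 1 with the stricter filter, 2 after quantile normalization, 2 after median centring and 2 without zero-variance probe sets, the last chosen after seeing the data. The cause was not tested. The listed ephrins and Eph receptors had 0 such probe sets under every alternative run, with a lowest adjusted p of 0.386 (1398273_at of Efna1, median centring). Listed probe sets at an unadjusted p under 0.05 in limma numbered 5 as reported, 3 with no filter and 3 with the stricter filter, where fewer were tested. They numbered 6 after quantile normalization, and 5 after median centring, with the pseudocount and without zero-variance probe sets.

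The sign of some small differences turned. Median centring put 1374403_at of Efnb1 at 0.001. With 1 array left out, 1374403_at ran from -0.03 to 0.02 and 1369476_at of Efnb1 from -0.94 to 0.43. The same ranges were -0.21 to 0.29, -0.16 to 0.34 and -0.03 to 0.45 for 1375729_at, 1379970_at and 1382908_at of Epha4, and -0.54 to 0.13 and -0.49 to 0.16 for 1369096_at and 1388061_a_at of Epha7. They were -0.27 to 0.02 for Efnb3, -0.03 to 0.10 for Ephb3 and -0.97 to 0.10 for Dvl2. Without 1 array Epha2 ran from 0.18 to 0.85, Efna4 from -0.36 to -0.08, Vav3 from -0.47 to -0.10, Rgs3 from 0.07 to 0.42 and Ptpn13 from 0.09 to 0.55. Given by the mean of its tested probe sets, the listed genes had a median of 0.12, with 4 higher.

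The replicate block, with the replicate number as a term, gave 6 listed probe sets at an unadjusted p under 0.05 and 0 past an adjusted p of 0.05, as without it. Nothing in the labels pairs same-numbered arrays. Their deviations correlated at 0.43 over all tested probe sets, and the second array was the higher one in both genotypes for 12 of the 16 listed probe sets, against 42.8% of all.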
